A study of Mus musculus with 18 samples.

Results

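Collagen genes were followed across mouse embryonic stem cells (mESCs) and embryoid bodies, the suspension aggregates in which mESCs differentiate. The genes were all those whose symbol has the form Col, a number, the letter a and a number, present in both count tables, which gave 44 genes among 54352 shared gene names. They comprised 6 chains of type IV collagen, 11 chains of fibrillar collagens and 27 others. The others were 9 FACIT chains (fibril-associated collagens with interrupted helices), 6 type VI chains, 4 transmembrane collagens, 3 short-chain collagens, 2 multiplexins and 3 further genes. RNA-seq was done on 18 libraries in 9 groups of 2. By its title the series concerns acetylation of EED, a core subunit of the histone methyltransferase complex PRC2, by CBP and P300. The FLAG-WT line carried a knock-in of FLAG-tagged EED of wildtype sequence, and the K19R line the same tagged EED with a lysine replaced by arginine. Both lines were sampled as mESCs at day 0, in medium with serum, leukemia inhibitory factor (LIF) and 2i (inhibitors of MEK1/2 and GSK3), and as embryoid bodies at days 2, 6 and 10, after LIF and 2i were left out. A further group held untagged wildtype mESCs kept in LIF without 2i. The sources used here give neither the number of clones behind each line nor the parent of the lines.

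Collagens are secreted trimers whose chains wind into a helix, and they differ in what the helices build. Type IV collagen forms the sheet-like network of basement membranes. Its Col4a1 and Col4a2 chains are the widespread form, and parietal endoderm, an extraembryonic lineage that embryoid bodies can form, is known for secreting large amounts of it together with laminin. Fibrillar collagens assemble into the banded fibres of connective tissue: types I, III and V in mesenchyme, types II, XI and XXVII mainly in cartilage. The chains need hydroxylation, chaperones and export before secretion, and fibrillar chains are then trimmed and cross-linked outside the cell.

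Total counts ran from 20158077 to 28917558 in the 16 knock-in libraries and, for the wildtype mESCs, were 14190166 and 37375083. Levels are given as CPM, counts scaled by the library's total and its TMM factor (trimmed mean of M-values), and as FPKM, that CPM per kilobase of exon, wherever genes are set beside each other. The K19R substitution cannot be read from counts per gene. Eed itself stood at 176 to 201 CPM at day 0 in the knock-in lines and at 39.5 to 50.5 CPM at days 6 and 10. Its libraries overlapped between the lines at days 0 and 6. They did not at day 2 (110 to 112 CPM in FLAG-WT, 78.4 to 82.9 in K19R) or at day 10 (43.2 to 47.3 and 47.5 to 50.5). The 8 pluripotency markers summed to 6057 to 6414 CPM at day 0 in both lines, as the mESC label has it. At day 10 they summed to 284 CPM in both FLAG-WT libraries and to 780 and 962 CPM in the K19R libraries. In bulk libraries, fewer cells that express a gene and less RNA per cell cannot be told apart.

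The 6 type IV genes lie in 3 head-to-head pairs. The pair that carries most of the collagen signal per length in embryoid bodies, except in K19R at day 2, shares its start region. In the deposited annotation (GRCm38), Col4a1 spans chromosome 8, 11198423 to 11312826, on the minus strand, and Col4a2 spans 11312805 to 11449287 on the plus strand. The genes overlap by 22 bases at their starts. The recorded counting gave no strand option, so reads there could not be assigned to a gene by strand. The starts of Col4a4 and Col4a3 on chromosome 1 are 72 bases apart, and those of Col4a6 and Col4a5 on chromosome X 1309 bases. Sequences from RefSeq (GRCm38.p6) are shown for 30 bases upstream of the Col4a2 start, outside the overlap of the genes, and for 2 fibrillar genes that were higher in K19R. The stretches differ in length, so their numbers of marked matches cannot be compared. Capitals mark matches, on either strand, to the letters CCAAT. Capitals also mark the GC box, GGGCGG, and the TATA box, which was searched as TATAAA. The Col4a2 stretch is chr8:11312767-11312796 on the plus strand, which lies inside Col4a1 on the other strand, and its CCAAT begins 32 bases before the Col4a2 start. The others are the 250 bases before the RefSeq starts of Col1a2, chr6:4505368-4505617, and Col3a1, chr1:45311288-45311537, both on the plus strand. The Col1a2 stretch lies inside the gene as the deposited annotation draws it (chromosome 6, 4504814 to 4541544).
Col4a2: agctccCCAATttgttggcgctgccccctc
Col1a2: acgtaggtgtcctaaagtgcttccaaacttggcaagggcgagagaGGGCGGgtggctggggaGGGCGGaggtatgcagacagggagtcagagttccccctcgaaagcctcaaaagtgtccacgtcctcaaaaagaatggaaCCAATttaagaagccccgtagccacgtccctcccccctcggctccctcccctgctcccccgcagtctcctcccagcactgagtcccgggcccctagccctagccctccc
Col3a1: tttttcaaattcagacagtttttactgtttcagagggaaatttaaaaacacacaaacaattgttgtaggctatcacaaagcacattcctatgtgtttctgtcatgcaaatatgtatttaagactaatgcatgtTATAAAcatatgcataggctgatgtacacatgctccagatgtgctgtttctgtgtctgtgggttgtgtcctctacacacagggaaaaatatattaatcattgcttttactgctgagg

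The start regions differed in CpG content. A RefSeq window of 250 bases before to 50 after the start was given for 35 of the 44 genes, in 38 windows. The windows of Col4a1 and Col4a2, which share 78 bases, held 37 and 33 CpG dinucleotides, more than 94.4% and 91.4% of the 32851 windows in the table. The Col1a2 window held 13 and the Col3a1 window 0, against a median of 7 over all windows and 11.5 over the collagen windows. CCAAT stood in 13 of the 38 collagen windows and in 37.4% of all windows, GGGCGG in 23 and in 35.7%, and TATAAA in 5 and in 13.6%. In the full windows GGGCGG matched 1 time for Col4a1, 3 times for Col4a2, 2 times for Col1a2 and 0 times for Col3a1. GATAAG, the core of a GATA motif, stood in 1 collagen window and in 7.44% of all windows. A match of letters is a description and shows no binding.

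Type IV collagen held the largest share of collagen transcript per length in embryoid bodies of both lines, except in K19R at day 2. In FLAG-WT libraries Col4a1 stood at 425 and 451 CPM at day 0, 1343 and 1308 at day 2, 7453 and 7759 at day 6, then 8568 and 10734 at day 10. Every later FLAG-WT library lay above those of the preceding day. In K19R libraries Col4a1 stood at 475 and 507 CPM at day 0, fell to 206 and 177 at day 2, and then rose to 2671 and 2737 at day 6 and to 5743 and 5330 at day 10. The libraries of the lines did not overlap at any of the 4 days, with K19R slightly above FLAG-WT at day 0 and below it from day 2.

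Col4a2, the chain that pairs with Col4a1 in the network, ran alongside. FLAG-WT libraries held 147 and 154 CPM of it at day 0, 540 and 530 at day 2, 4347 and 4428 at day 6, then 4886 and 5982 at day 10. K19R libraries held 156 and 162, then 67.3 and 62.3, 1477 and 1525, and 3034 and 2832 CPM. The K19R libraries at day 2 were the lowest of the knock-in libraries for both chains. Per length, Col4a1 was 2.58 ± 0.022 times Col4a2 (SD, n = 2) in FLAG-WT and 2.74 ± 0.054 times in K19R at day 0. That ratio was 1.54 ± 0.024 and 1.598 ± 0.0088 at day 6, and 2.20 ± 0.0097 in FLAG-WT against 2.61 ± 0.14 in K19R at day 2.

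Expressed per length, Col4a1 reached 1293 ± 205 FPKM (SD, n = 2) in FLAG-WT at day 10, the 18th highest of all gene names in that group, and 742 ± 39.2 FPKM in K19R, the 32nd. Col4a2 ranked 36th in FLAG-WT and 72nd in K19R at day 10. At day 2 Col4a1 ranked 194th in FLAG-WT and 1979th in K19R. Collagens together took 0.132% of all counts in FLAG-WT at day 0 and 1.29% at day 10, and 0.142% and 0.893% in K19R. These shares were nearly all Col4a1 and Col4a2 at day 10, which took 1.22% and 0.847% of the counts.

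**Figure D1:**
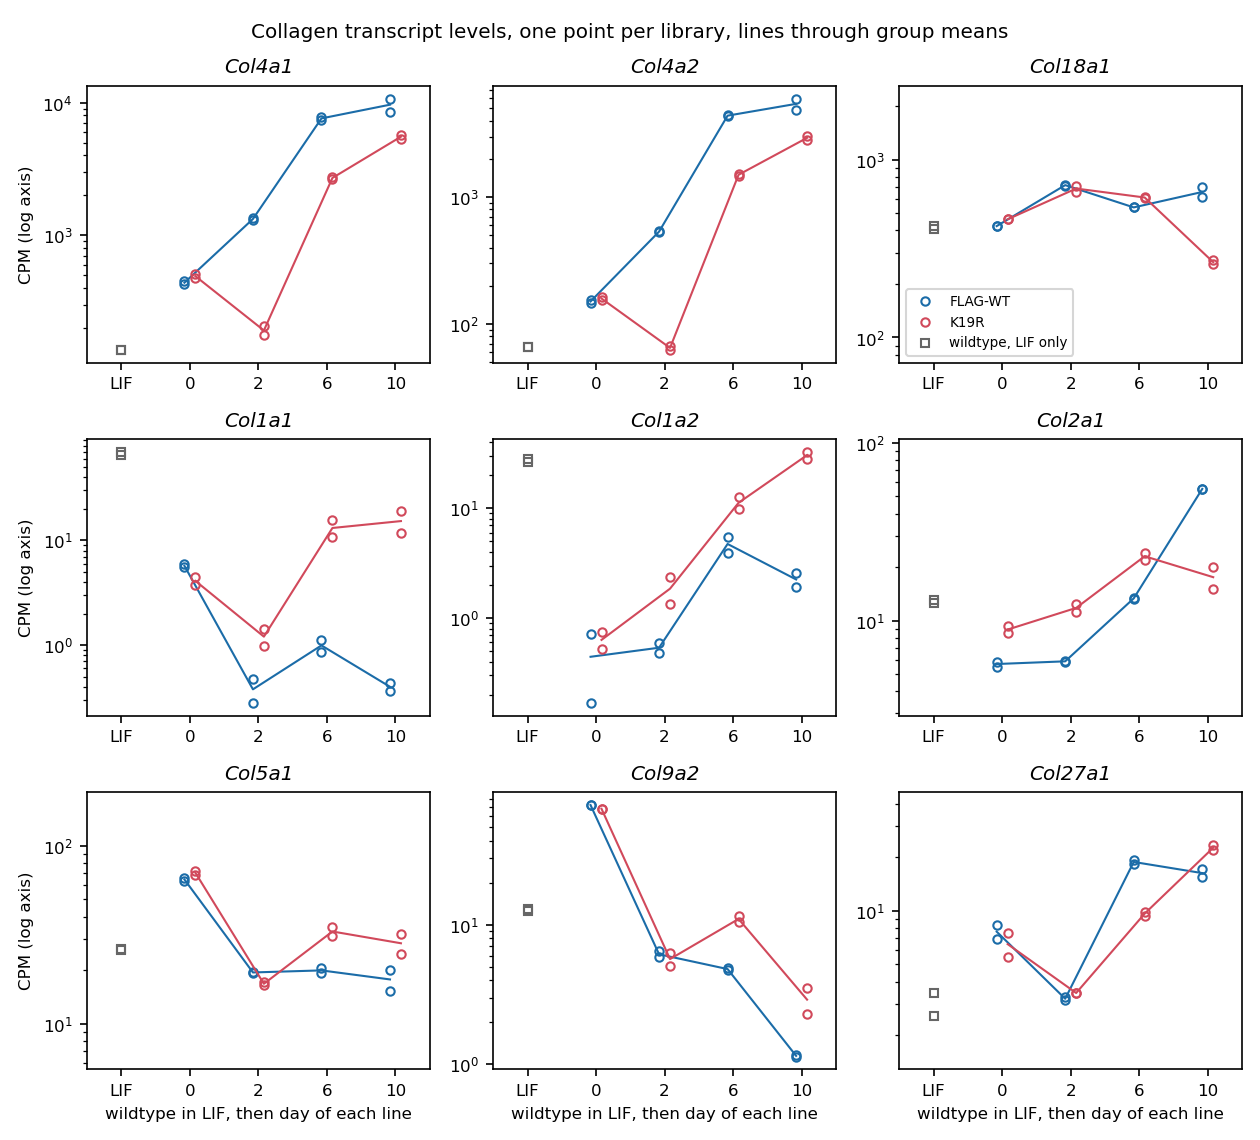
Transcript levels in CPM (log axis) of 9 collagen genes in wildtype mESCs in LIF (squares) and at days 0, 2, 6 and 10 of the FLAG-WT and K19R lines. Each symbol is 1 library and each line joins group means of 2 libraries. Col4a1 and Col4a2 are below their day 0 levels in K19R at day 2, while Col1a1 and Col1a2 are above FLAG-WT in K19R at days 6 and 10.

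The FLAG-WT course asks how the collagens change as cells with wildtype EED differentiate. From day 0 to day 10 Col4a1 rose by 4.46 log2 units (SE 0.10, edgeR adjusted p = 2.5e-23) and Col4a2 by 5.17 (SE 0.09, adjusted p = 4.9e-25). Col4a5, an X-linked type IV chain, rose by 4.38 (SE 0.43, adjusted p = 7.4e-10) from 0.29 and 0.12 CPM to 4.16 and 4.54 CPM. Most of the increase came before day 6: from day 6 to day 10 Col4a1 gained 0.35 (adjusted p = 0.0023) and Col4a2 0.31 (adjusted p = 0.0022). Of the 10 fibrillar genes tested, 3 were higher and 4 lower at day 10 than at day 0, near the 37% and 40.9% of all genes. Col2a1, Col1a2 and Col27a1 rose, while Col1a1, Col5a1, Col5a2 and Col5a3 fell.

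Over all 37 collagens tested, 14 (37.8%) were higher at day 10 than at day 0 in FLAG-WT, where 37% of all genes tested were called higher. Another 13 (35.1%) were lower, against 40.9% of all genes. At day 2, 13 were higher and 11 lower than at day 0 (28.5% and 27.6% of all genes), and at day 6 again 13 and 11 (37% and 39.1%). From day 6 to day 10, 9 were higher and 7 lower (21.2% and 22.9% of all genes). Without FLAG-WT day 10 replicate 2, the count of higher genes in that last step was 5. The direction depended on the chain.

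In K19R cells the first step went the other way for type IV collagen. From day 0 to day 2 Col4a1 fell by 1.36 log2 units (SE 0.09, edgeR adjusted p = 9.7e-13) and Col4a2 fell by 1.29 (SE 0.08, adjusted p = 5.4e-13), whereas in FLAG-WT they rose by 1.597 (SE 0.09, adjusted p = 3.7e-14) and 1.83 (SE 0.08, adjusted p = 3.3e-16). From day 6 to day 10 K19R gained 1.03 (adjusted p = 2.6e-10) and 0.97 (adjusted p = 1.2e-10). Of the 37 collagens tested, 8 were higher and 18 (48.6%) lower at day 2 than at day 0 in K19R, against 28.5% and 27.9% of all genes. At day 6, 18 were higher and 8 lower than at day 0 (37.1% and 35.2% of all genes). At day 10 they were 19 and 11 (38.1% and 35.8%), and from day 6 to day 10 they were 10 and 12 (33.4% and 25.2%).

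The comparison of K19R with FLAG-WT on the same day asks how the lines differ. The substitution in EED and any other difference between the lines cannot be told apart here. At day 0, in LIF and 2i, 8 of the 37 collagens tested (21.6%) were higher in K19R, where 5.51% of all genes were. None was lower by edgeR (4.98% of all genes), and there was also none at an unadjusted p under 0.05 or by DESeq2. The 8 were Col2a1, Col3a1, Col5a3, Col6a3, Col6a5, Col8a2, Col11a1 and Col17a1, with changes of 0.48 to 3.62. Col3a1 rested on 15 counts against 1. This count depended on single libraries: it fell when any 1 of the 4 libraries was left out. The count of all genes called higher fell in each of these fits too. By DESeq2, which gave no adjusted p for Col3a1 and Col6a3, 5 collagens were higher. Over all genes DESeq2 called 1121 higher, where edgeR called 1052. FLAG-WT replicate 2 at day 0 also carried more RNA of visceral endoderm markers: their sum was 9.88 CPM in the other FLAG-WT replicate, 116 CPM in this one and 7.86 to 9.31 CPM in K19R. Its part in the day 0 result was not tested.

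At day 2, 6 collagens were higher and 7 lower in K19R (16.2% and 18.9% of those tested), against 20% and 21.8% of all genes. At day 6, 23 were higher and 4 lower (62.2% and 10.8%), against 28.4% and 30.1%. At day 10, 22 were higher and 6 lower (59.5% and 16.2%), against 33.2% and 25.2%. Of the tested collagens, 29 never reached a group mean of 20 CPM in the knock-in lines. Such genes can pass the filter on low counts through the group where they are high, so these counts describe the collagens that passed and not all 44.

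Col4a1 and Col4a2 were lower in K19R embryoid bodies at each of days 2, 6 and 10. For Col4a1 the log2 difference was -2.79 at day 2 (SE 0.09, edgeR adjusted p = 5.1e-18), -1.49 at day 6 (SE 0.09, adjusted p = 2.2e-13) and -0.80 at day 10 (SE 0.09, adjusted p = 2.1e-08). Col4a2 changed by -3.04, -1.55 and -0.89 on those days (adjusted p = 1.5e-19, 1.5e-14 and 5e-10). At day 0 neither passed, at 0.16 (SE 0.09, adjusted p = 0.27) and 0.08 (SE 0.08, adjusted p = 0.63). Fitted on its own 4 libraries, the day 0 comparison called Col4a1 higher in K19R (0.17, adjusted p = 0.0089). At day 10 the differences shrank to -0.50 and -0.58 when libraries were scaled by their totals only, and both stayed past the threshold.

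The X-linked type IV pair was called in the other direction, at low levels. Col4a5 (chromosome X, 141475385 to 141689234) stood at 4.16 and 4.54 CPM in FLAG-WT and 6.25 and 9.30 CPM in K19R at day 10 (0.83, SE 0.25, edgeR adjusted p = 0.0062). Col4a6 (chromosome X, 141165403 to 141474076) stood at 0.13 and 0.47 CPM in FLAG-WT and 1.82 and 1.71 CPM in K19R at day 6 (2.64, SE 0.51, adjusted p = 8.3e-05). At day 10 it had 0 counts in FLAG-WT and 110 in K19R, at least 14.3-fold higher when each FLAG-WT library is set at 3 counts. The pair was at most 9.30 CPM in any library, so it added little to the type IV total. Col4a3 and Col4a4, the chains of the kidney glomerulus, did not pass the filter and had at most 7 counts in a library.

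Markers of primitive and parietal endoderm, and those of visceral endoderm, moved with type IV collagen at days 2 and 6. Of 12 primitive and parietal endoderm markers, which include Lamb1 and Sparc, 11 were lower in K19R at day 2. At day 6, 9 were lower and 1 higher. Of all genes, 21.8% and 30.1% were lower at days 2 and 6. The summed level of the 12 was 3400 to 3439 CPM in FLAG-WT and 593 to 622 CPM in K19R at day 2. At day 6 it was 16410 to 16480 against 6214 to 6349 CPM. At day 10 it was 15080 to 17010 against 10570 to 10630 CPM, with 4 markers higher and 5 lower on the TMM scale and 6 higher and 4 lower on library totals. None of the 12 was at 0 in any group. Of 10 visceral endoderm markers 8 were lower at day 2 and 9 at day 6. At day 10, 4 were lower and 2 higher on the TMM scale, and 2 lower and 4 higher on library totals. Their summed level was 2371 to 2467 CPM in FLAG-WT and 177 to 235 CPM in K19R at day 2. At day 6 it was 23670 to 24500 against 7529 to 8040 CPM, and at day 10 it was 34840 to 35600 against 22400 to 22410 CPM. Of all genes at day 10, 33.2% were higher and 25.2% lower on the TMM scale, and 48.8% and 14.6% on library totals. The part of these cell types in the type IV result was not tested.

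Most of the fibrillar collagens tested were higher in K19R at days 6 and 10, at summed levels far below type IV. Col1a1, the main chain of type I collagen (chromosome 11, 94936224 to 94953042), stood in FLAG-WT libraries at 5.54 and 5.91 CPM at day 0, 0.48 and 0.28 at day 2, 0.87 and 1.12 at day 6, then 0.37 and 0.43 at day 10. In K19R libraries it stood at 4.51 and 3.71, 0.97 and 1.44, 10.8 and 15.5, and 11.7 and 18.9 CPM. The lines did not overlap at any day, and K19R was above from day 2. The differences were 1.69 at day 2 (SE 0.45, edgeR adjusted p = 0.0035), 3.75 at day 6 (SE 0.28, adjusted p = 1.7e-11) and 5.23 at day 10 (SE 0.34, adjusted p = 1e-12). The call at day 2 was lost without FLAG-WT replicate 2 (adjusted p = 0.079) or K19R replicate 2 (adjusted p = 0.055).

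Col1a2, the partner chain of type I collagen, rose in both lines and further in K19R. FLAG-WT libraries held 0.17 and 0.72 CPM at day 0, 0.48 and 0.59 at day 2, 5.52 and 3.95 at day 6, then 1.90 and 2.59 at day 10. K19R libraries held 0.75 and 0.52, 2.37 and 1.34, 9.89 and 12.6, and 32.8 and 28.4 CPM. Only at day 0 did the libraries of the lines overlap. The difference was 1.77 at day 2 (SE 0.39, edgeR adjusted p = 0.00058), 1.23 at day 6 (SE 0.22, adjusted p = 2.5e-05) and 3.77 at day 10 (SE 0.24, adjusted p = 6.1e-13).

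Col3a1 and Col5a2 are neighbours on chromosome 1, 24614 bases apart and on opposite strands, and both were higher in K19R at the later days. Col3a1, the chain of type III collagen, had 145 counts in K19R and 1 in FLAG-WT at day 10, a ratio of 113 with an exact 95% interval of 19.9 to 4488 for counting error only. At day 6 it had 9 counts against 0, at least 1.09-fold higher, and its call there was lost without either FLAG-WT library or without K19R replicate 2 (adjusted p from 0.071 to 0.11). Col5a2, a type V chain that is built into type I fibrils, stood at 10.2 and 10.3 CPM in FLAG-WT and 10.6 and 12.4 in K19R at day 0. At day 10 it stood at 0.47 and 0.54 against 8.26 and 8.01 CPM (3.99, SE 0.24, edgeR adjusted p = 3.7e-13). From day 0 to day 10 Col5a2 changed by -0.49 in K19R (SE 0.14, adjusted p = 0.003), while in FLAG-WT it fell by 4.32 (SE 0.24, adjusted p = 3.7e-15).

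Col5a1, the other chain of type V collagen (chromosome 2, 27886425 to 28039514), dropped after day 0 in both lines. FLAG-WT libraries held 65.9 and 63.6 CPM at day 0, 19.5 and 19.3 at day 2, 20.7 and 19.2 at day 6, then 15.3 and 20.1 at day 10. K19R libraries held 69.0 and 72.3, 17.1 and 16.4, 31.1 and 34.9, and 24.7 and 31.9 CPM. It was higher in K19R at day 6 (0.73, SE 0.11, edgeR adjusted p = 4.9e-06) and day 10 (0.67, SE 0.12, adjusted p = 2.5e-05). Col5a3 was higher by 2.73 at day 6 and by 3.74 at day 10, from group means of 1.33 and 0.160 CPM in FLAG-WT.

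Of the cartilage-type fibrillar chains, Col2a1 changed direction at day 10. Col2a1, the chain of type II collagen (chromosome 15, 97975602 to 98004695), stood in FLAG-WT libraries at 5.88 and 5.51 CPM at day 0, 5.83 and 5.96 at day 2, 13.4 and 13.3 at day 6, then 54.8 and 55.3 at day 10. In K19R libraries it stood at 8.53 and 9.26, 12.4 and 11.2, 24.0 and 22.01, and 19.95 and 15.1 CPM. It was higher in K19R at days 0, 2 and 6 (0.64, 1.00 and 0.79, edgeR adjusted p = 0.0037, 8.7e-07 and 2.5e-06) and lower at day 10 (-1.65, SE 0.11, adjusted p = 2.1e-12). The day 0 call was lost without FLAG-WT replicate 2 (adjusted p = 0.059). Col11a1 was higher at day 0 (0.48, adjusted p = 0.039) and passed at no later day, and Col11a2 was higher at day 6 (2.75, SE 0.64, adjusted p = 0.00064).

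Col27a1, which codes for type XXVII collagen (chromosome 4, 63214004 to 63334991), was lower in K19R at day 6 and higher at day 10. FLAG-WT libraries held 6.96 and 8.31 CPM at day 0, 3.27 and 3.14 at day 2, 18.3 and 19.4 at day 6, then 17.1 and 15.5 at day 10. K19R libraries held 5.52 and 7.47, 3.47 and 3.43, 9.40 and 9.89, and 21.96 and 23.3 CPM. The difference was -0.96 at day 6 (SE 0.13, edgeR adjusted p = 5.6e-07) and 0.47 at day 10 (SE 0.13, adjusted p = 0.0022). On library totals these were -0.60 and 0.77, past the threshold as well.

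Counted together, 4 of the 10 tested fibrillar genes were higher in K19R at day 0 and 4 at day 2, where 5.51% and 20% of all genes were. At day 6, 8 were higher and 1 lower, with a median log2 difference of 1.98 against 0.02 over all genes. That median was 1.01 with Col3a1 set at its bound. At day 10, 7 were higher and 1 lower, with a median of 2.31 against 0.13 over all genes. Of all genes 28.4% and 33.2% were higher at days 6 and 10, and 30.1% and 25.2% lower. The lower genes were Col27a1 at day 6 and Col2a1 at day 10. Col24a1, the remaining fibrillar gene, did not pass the filter and had at most 23 counts in a library.

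Mesenchymal and cartilage markers are given beside the fibrillar collagens. Of 12 mesenchyme markers 8 could be tested, and 4 were higher in K19R at each of days 2, 6 and 10, with 1, 1 and 2 lower. Over all genes 20%, 28.4% and 33.2% were higher on those days and 21.8%, 30.1% and 25.2% lower. Their summed level at day 10 was 24.8 to 27.0 CPM in FLAG-WT and 42.5 to 42.8 CPM in K19R, of which Postn, a matrix protein of fibroblasts, made up 20.1 CPM in K19R and 0.0264 in FLAG-WT. Dcn, Lum, Meox1, Meox2 and Twist2 were at 0 counts in FLAG-WT at day 10. In K19R Meox2 was at 0 counts too, Lum stood at 0.0832 CPM and Dcn at 0.144 CPM. Twist1 was lower in K19R at each of the 4 days. The 10 cartilage and notochord markers summed to 45.8 to 60.4 CPM in FLAG-WT and 16.7 to 19.1 CPM in K19R at day 10. At day 6 they summed to 18.2 to 19.9 and 26.9 to 30.1 CPM. Of the 7 that could be tested, 6 were higher and 1 lower in K19R at day 6, and 2 were higher and 2 lower at day 10. Their part in the fibrillar result was not tested.

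**Figure D2:**
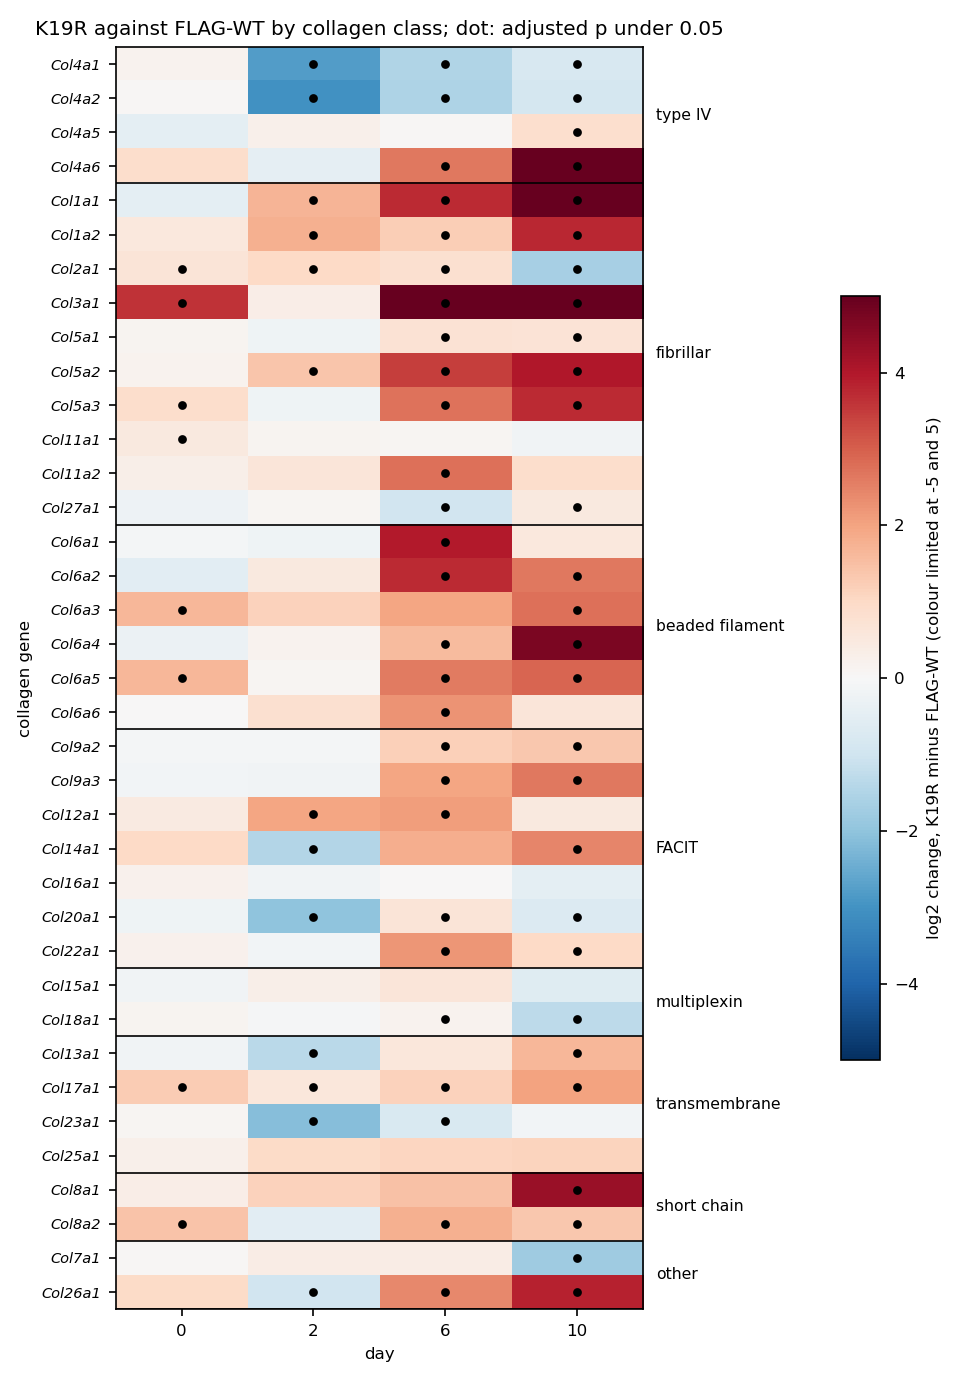
Log2 difference of K19R minus FLAG-WT (colour, limited at -5 and 5) for the 37 collagen genes tested, by class (rows) and day (columns); a black dot marks an adjusted p under 0.05. The colours of Col3a1 at days 0, 6 and 10, Col4a6 at days 0 and 10 and Col8a1 at day 2 rest on 0 or 1 counts in FLAG-WT. Col4a1 and Col4a2 are blue from day 2, while most fibrillar and type VI rows are red at days 6 and 10.

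Outside these classes, Col18a1 ranked first per length among collagens in the 3 mESC groups, at 60.3 ± 0.36 FPKM in FLAG-WT day 0 beside 58.7 ± 2.5 for Col4a1, which is within the spread. It codes for a basement membrane multiplexin whose end fragment is endostatin (chromosome 10, 77052178 to 77166548). FLAG-WT libraries held 422 and 425 CPM at day 0, 715 and 724 at day 2, 539 and 540 at day 6, then 615 and 702 at day 10. K19R libraries held 462 and 463, 714 and 663, 607 and 619, and 259 and 271 CPM. The lines differed mainly at day 10, where K19R was lower (-1.31, SE 0.07, edgeR adjusted p = 2.7e-14) and lay below every other knock-in library. The difference at day 6 (0.19, SE 0.07, adjusted p = 0.022) was lost without any one of the 4 libraries, with adjusted p from 0.052 to 0.093, and was 0.55 on library totals.

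Type VI chains, which form beaded microfilaments around cells, were low at all days and higher in K19R late. At day 6, 5 of the 6 were higher, where 28.4% of all genes were. They were led by Col6a1 (3.98, SE 0.30, edgeR adjusted p = 1.4e-11) at 8.55 and 8.07 CPM in K19R and 0.65 and 0.35 CPM in FLAG-WT, and by Col6a2 (3.74, SE 0.44, adjusted p = 5.4e-08). At day 10, 4 were higher, where 33.2% of all genes were. Col6a4, at 73 counts against 2, was 28.4 times as high, with an exact 95% interval of 7.59 to 239, and Col6a5 differed by 2.92. Col6a1 was at 2.53 and 3.62 CPM in FLAG-WT and 4.47 and 4.33 CPM in K19R by day 10 (0.52, adjusted p = 0.064). Col6a3 was called at day 10 on 19 against 2 counts, and not without FLAG-WT replicate 1 (adjusted p = 0.13). Col6a6 was called at day 6 (2.23), and not without FLAG-WT replicate 1 (1.45, adjusted p = 0.20) or K19R replicate 2 (adjusted p = 0.0504).

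Col6a5 also stood out for its timing. It was at 0.25 and 0.20 CPM at day 0 in FLAG-WT, at 7.75 and 7.42 CPM at day 2, and at 0.13 and 0.12 CPM by day 6. K19R libraries held 0.71 and 0.75, 8.27 and 8.12, and 0.85 and 0.71 CPM. The difference between the lines at day 2 did not pass the test (0.11, SE 0.17, edgeR adjusted p = 0.62). The neighbours Col6a4 and Col6a6 on chromosome 9 had higher CPM at day 2 than at days 0 or 6 in both lines too.

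Among FACIT chains, which decorate the surface of fibrils, Col9a2 (chromosome 4, 121039385 to 121055322) was highest in mESCs of the knock-in lines. It stood at 72.4 and 72.5 CPM in FLAG-WT and 67.8 and 68.4 in K19R at day 0. At day 2 it was 6.44 and 5.85 against 5.09 and 6.27, and at day 6 it was 4.74 and 4.89 against 10.5 and 11.6. At day 10 it was 1.16 and 1.14 against 2.30 and 3.51 CPM. K19R was higher at day 6 (1.20, SE 0.14, edgeR adjusted p = 7.3e-08) and day 10 (1.33, SE 0.25, adjusted p = 5e-05). Col9a3 was higher by 1.97 and 2.63 on those days, Col12a1 by 1.96 and 2.10 at days 2 and 6, and Col22a1 by 2.20 and 1.01 at days 6 and 10. The Col12a1 call at day 2 was lost without FLAG-WT replicate 1 (adjusted p = 0.061). The Col22a1 call at day 10 was lost without FLAG-WT replicate 2 (0.43, adjusted p = 0.25) or K19R replicate 1 (adjusted p = 0.078). Col20a1 was lower at day 2 (-2.02), higher at day 6 and lower at day 10. It stood at 3.48 and 4.01 CPM in FLAG-WT and 6.56 and 5.19 in K19R at day 6. At day 10 it stood at 8.22 and 9.78 against 6.77 and 4.46 CPM. The day 6 call was lost without replicate 1 of either line, and the day 10 call without replicate 2 of either line. Col14a1 was called at days 2 and 10 on 0.05 to 0.83 CPM, and each call was lost without any one library.

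The remaining classes held chains that moved in either direction. Of the transmembrane collagens, Col23a1 was lower in K19R at day 2 (-2.14, SE 0.23, edgeR adjusted p = 2.5e-08) and day 6 (-0.75), and the latter did not pass on library totals (adjusted p = 0.0502). Col17a1, the hemidesmosome collagen of epithelia, was higher at each of the 4 days, by 1.29, 0.55, 1.17 and 2.00. Col7a1, which builds the anchoring fibrils under epithelia, was lower at day 10 (-1.78, SE 0.19, adjusted p = 1e-08). Col26a1 and the short-chain collagen Col8a1 were higher at day 10, by 3.84 and 4.31. Col10a1, Col19a1, Col28a1 and Col9a1 did not pass the filter, and with Col4a3, Col4a4 and Col24a1 their highest group means ran from 0.0844 to 0.591 CPM and their highest library counts from 3 to 23. Of these, Col9a1 had 24 counts in K19R and 0 in FLAG-WT at day 10, at least 3.15-fold higher.

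The balance of type IV and fibrillar collagen is given by the summed levels of both classes, on the TMM scale, and then by their ratio. The summed level of the 6 type IV genes was 79.2 and 83.8 FPKM in FLAG-WT at day 0, 262 and 255 at day 2, 1656 and 1709 at day 6, then 1887 and 2343 at day 10. K19R libraries held 87.2 and 92.5, 37.8 and 33.2, 582 and 598, and 1229 and 1144 FPKM. The 11 fibrillar genes summed to 13.3 and 12.95, 3.93 and 4.10, 6.54 and 6.505, and 9.86 and 10.6 FPKM in FLAG-WT. In K19R they summed to 15.2 and 15.99, 5.05 and 4.78, 12.5 and 13.7, and 13.2 and 14.5 FPKM. Type IV was below FLAG-WT in every K19R library from day 2, and the fibrillar sum was above FLAG-WT in every K19R library at each day. Both statements held on library totals as well.

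The ratio is formed within each library, so that scaling between libraries does not enter it. On the log2 scale it was 2.63 ± 0.084 (SD, n = 2) in FLAG-WT and 2.52 ± 0.012 in K19R at day 0. In FLAG-WT it reached 6.01 ± 0.067 at day 2, 8.01 ± 0.038 at day 6 and 7.69 ± 0.15 at day 10. In K19R it was 2.85 ± 0.075 at day 2, 5.50 ± 0.064 at day 6 and 6.42 ± 0.17 at day 10. At day 0 the FLAG-WT libraries stood at 2.57 and 2.69 and the K19R libraries at 2.52 and 2.53. The lines did not overlap at any of the 4 days, and the means were farthest apart at day 2. No test was made of the ratio, since it is a score over genes chosen with results known.

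As a share of all collagen signal per length, type IV made up 44.4 ± 1.07% in FLAG-WT and 45.0 ± 0.80% in K19R at day 0. At day 2 it made up 69.0 ± 0.57% and 24.2 ± 0.79%, and Col18a1 alone made up 27.3 ± 0.48% and 66.9 ± 0.32%. At day 6 the type IV shares were 94.9 ± 0.085% and 83.8 ± 0.0053%. At day 10 they were 94.99 ± 0.32% and 95.2 ± 0.36%, closer than their spread. The fibrillar share at day 10 was 0.462 ± 0.047% in FLAG-WT and 1.12 ± 0.13% in K19R.

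**Figure D3:**
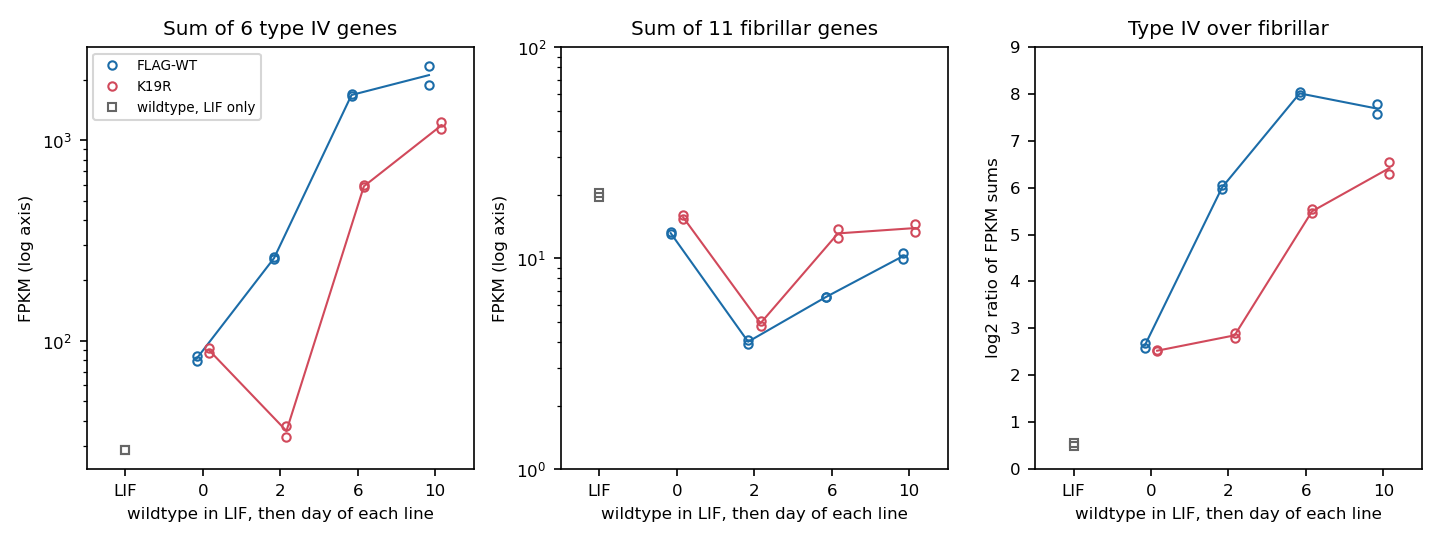
Summed FPKM (log axes) of the 6 type IV genes and of the 11 fibrillar genes, and the log2 ratio of these sums, in each library of the wildtype mESCs in LIF (squares) and of the FLAG-WT and K19R lines by day. Lines join group means of 2 libraries. The ratio stays near its day 0 value in K19R at day 2 (2.85 against 6.01 in FLAG-WT) and remains lower at day 10 (6.42 against 7.69).

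Whether the course over time differs between the lines was asked with an interaction term, the change of the K19R minus FLAG-WT difference since day 0. By day 2 it was called for 2 collagens as higher and 9 as lower (12.7% and 14.4% of all genes), by day 6 for 13 and 4 (22.1% and 22.4%), and by day 10 for 13 and 6 (26.1% and 18.8%). Col4a1 and Col4a2 were lower in all 3 terms. Col1a1 and Col5a2 were higher in all 3, and Col5a2 changed by 1.21, 3.31 and 3.83 (edgeR adjusted p = 0.00025, 1.1e-10 and 8.1e-11). The 4 lower by day 6 became 2 without K19R day 0 replicate 2 and 2 on library totals.

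Scaling matters for the size of these differences. TMM set the median difference of all genes between the lines at 0.02 at day 6 and 0.13 at day 10. With library totals only it was 0.38 and 0.43, and 72.9% of the calls were higher in K19R at day 6 instead of 48.6%, and 77.0% instead of 56.9% at day 10. For the interaction terms this share was 76.85% instead of 49.7% by day 6, and 80.3% instead of 58.1% by day 10. Along the FLAG-WT course the median by day 6 was -0.43 instead of -0.05, with 37.2% of calls higher instead of 48.7%. By day 10 it was -0.53 instead of -0.12, with 36.8% instead of 47.5%. Under this scaling Col4a1, Col4a2, Col1a1, Col1a2, Col5a2 and Col9a2 had the same direction and call at days 6 and 10, while Col20a1 at day 10 was no longer called and Col6a1 at day 10 was (0.82, adjusted p = 0.004).

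Genes that fold, hydroxylate and export collagen were mostly lower in K19R at day 6, and at day 10 on the TMM scale. Of 20 such genes, 1 was higher and 9 lower in K19R at day 2, 2 and 16 at day 6, then 3 and 13 at day 10, with median differences of -0.15, -0.60 and -0.29. Over all genes 20%, 28.4% and 33.2% were higher and 21.8%, 30.1% and 25.2% lower on those days. On library totals, a scaling tried for this list after the values were seen, 2 were higher and 10 lower at day 6 (median -0.24, with 44.9% of all genes higher and 16.7% lower). At day 10 the split was then 6 higher and 7 lower (median 0.02, with 48.8% and 14.6% of all genes), so the day 10 direction of the list depends on the scaling. Serpinh1, the collagen chaperone HSP47, stood at 455 ± 16 CPM (SD, n = 2) in FLAG-WT and 53.1 ± 2.7 in K19R at day 2 (-3.10, SE 0.08, edgeR adjusted p = 2.3e-20), and at 1481 ± 8.0 and 686 ± 16 CPM at day 6 (-1.11, adjusted p = 1.1e-12). P4ha1, a catalytic subunit of prolyl 4-hydroxylase, was at 110 ± 1.9 and 34.3 ± 0.34 CPM at day 2 (-1.68, SE 0.08, adjusted p = 1.5e-15) and at 724 ± 75 and 325 ± 18 CPM at day 10 (-1.16, SE 0.07, adjusted p = 3.1e-13). P3h4, which takes part in collagen modification in the endoplasmic reticulum, was lower at day 10 (-1.50, SE 0.10). P4ha3 was higher there (2.07, SE 0.38) at 3.39 ± 0.18 CPM, and Colgalt2 had 14 counts against 0, at least 1.79-fold higher.

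Genes that process and cross-link secreted collagen were more often higher than lower in K19R at day 6. Of 14, 12 could be tested, of which 7 were higher and 3 lower in K19R at day 6, where 28.4% of all genes were higher and 30.1% lower. At day 10, 5 were higher and 2 lower, near the 33.2% and 25.2% of all genes. On library totals 8 were higher and 3 lower at day 6 and 7 and 2 at day 10, where 44.9% and 48.8% of all genes were higher. Pcolce2, which helps the removal of procollagen ends, was higher at each of the 4 days, by 0.45, 0.33, 1.95 and 3.54 (edgeR adjusted p at most 0.0068), though its level fell from 59.7 ± 2.5 CPM at day 0 to 3.77 ± 0.42 at day 10 in K19R. Tll1, a protease that removes them, had 42 counts against 0 at day 10, at least 5.42-fold higher. Loxl3, a lysyl oxidase family member, was higher at day 10 (2.09, SE 0.53, adjusted p = 0.0014), and Loxl4 of the same family was lower (-2.13, SE 0.33, adjusted p = 5.1e-06).

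Most of the other basement membrane genes tested were lower in K19R from day 2. Of 14 genes, 13 could be tested, and 10, 11 and 11 were lower in K19R at days 2, 6 and 10, with 1, 1 and 2 higher and medians of -0.95, -0.98 and -1.18. Over all genes 21.8%, 30.1% and 25.2% were lower on those days and 20%, 28.4% and 33.2% higher. On library totals 10, 9 and 10 of the 13 were lower. Lama1, the laminin chain of early embryonic basement membranes, stood at 367 ± 11 CPM in FLAG-WT and 38.1 ± 7.4 in K19R at day 2 (-3.27, SE 0.14, edgeR adjusted p = 7.3e-16). Nid1, which links laminin to type IV collagen, was lower at day 10 (-1.73, SE 0.10, adjusted p = 1.1e-13), as were Hspg2, which codes for perlecan (-1.42, SE 0.14), Lama1 (-1.37) and Lama5 (-1.30). At day 0, 5 of the 13 were higher, where 5.51% of all genes were. Lamb1 and Sparc stand in this list and among the endoderm markers.

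**Figure D4:**
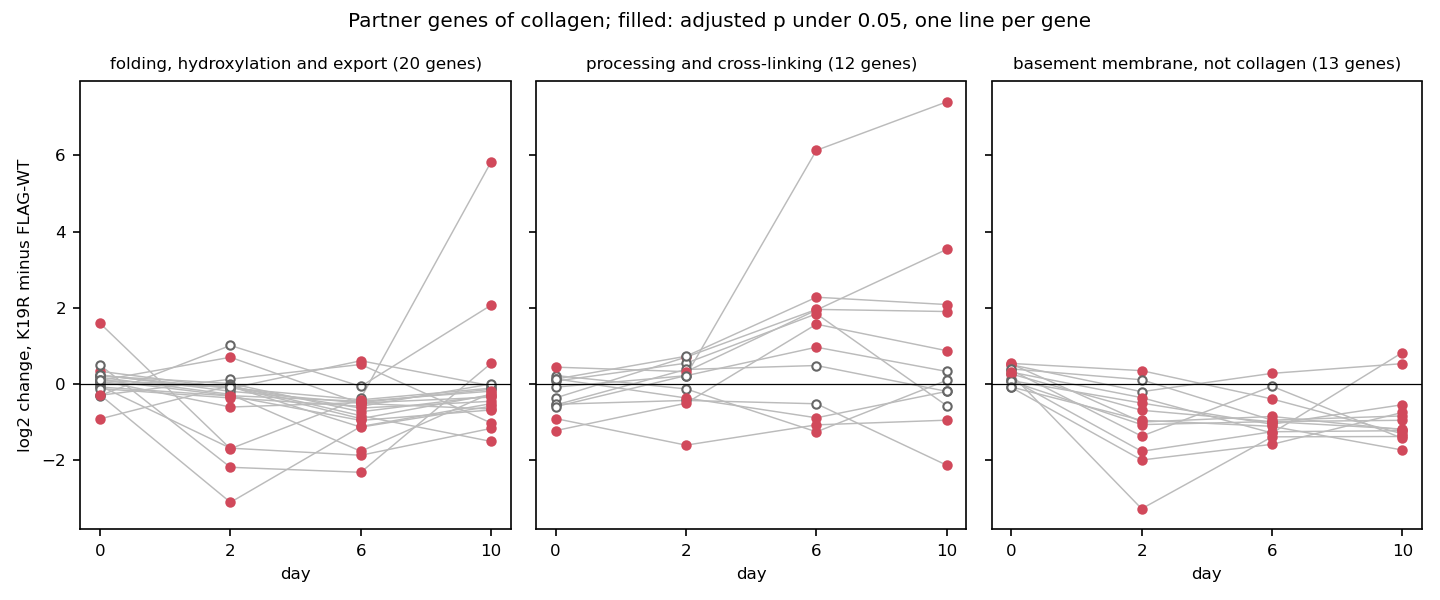
Log2 difference of K19R minus FLAG-WT by day for genes that fold and export collagen (20), process and cross-link it (12) and build the basement membrane beside it (13). Each line is 1 gene and filled symbols passed an adjusted p under 0.05. The basement membrane genes lie mostly below 0 from day 2, and the 2 highest points at day 10, Tll1 and Colgalt2, rest on 0 counts in FLAG-WT.

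Wildtype mESCs in LIF were set against FLAG-WT at day 0, where the tag, 2i and the count table differ together and cannot be told apart. Of 37 collagens tested, 17 were higher and 11 lower in the wildtype mESCs (45.9% and 29.7%), against 32.4% and 32.5% of all genes. Col4a1 stood at 136 CPM in both wildtype libraries and Col4a2 at 66.0 and 65.9, both lower than in FLAG-WT (-1.69 and -1.19, edgeR adjusted p = 1.8e-15 and 5e-13). Col1a1 stood at 70.1 and 65.6 CPM (3.56, SE 0.18, adjusted p = 4.7e-16) and Col1a2 at 28.4 and 26.2 CPM (5.91, SE 0.28, adjusted p = 1.5e-16). These Col1a1 levels were above those of all 16 knock-in libraries. Col3a1 had 152 counts against 1, a ratio of 133 with an exact 95% interval of 23.5 to 5284.

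The wildtype mESCs had the lowest type IV to fibrillar ratio of the 9 groups, 0.52 ± 0.045 (SD, n = 2) on the log2 scale. Their fibrillar sum was 20.4 and 19.5 FPKM, the highest of all libraries, and their type IV sum was 28.6 FPKM in both, the lowest. Col9a2 was lower than in FLAG-WT at day 0 (-2.50, SE 0.11, edgeR adjusted p = 2.3e-17) and Col5a1 was too (-1.30, SE 0.10, adjusted p = 1.3e-11), while Col18a1 did not pass (-0.02, SE 0.07, adjusted p = 0.8). Mesenchyme markers summed to 25.8 to 27.0 CPM here and to 14.8 to 15.3 CPM in FLAG-WT at day 0. Acta2, a smooth muscle actin, stood at 43.8 CPM in the wildtype mESCs and 0.531 CPM in FLAG-WT at day 0. In K19R it stood at 54.5 and 36.7 CPM at days 6 and 10, against 3.55 and 1.10 CPM in FLAG-WT. It is 1 of 8 muscle and heart markers, which summed to 90.9 to 99.4 CPM in FLAG-WT and 103 to 115 CPM in K19R at day 6. At day 10 that sum was 140 to 180 CPM in FLAG-WT and 83.1 to 85.5 CPM in K19R. Of the 8, 4 were higher and 3 lower in K19R at day 6, and 3 and 4 at day 10. Over all genes 28.4% and 33.2% were higher on those days and 30.1% and 25.2% lower. Their part in these differences was not tested.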

How the data were processed

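The files hold raw counts, deposited by the authors as numbers of read pairs assigned to each gene name. Per the file headers, featureCounts (1.6.3 for the knock-in libraries, 1.6.4 for the wildtype mESCs) counted over GENCODE vM19 exons on GRCm38, requiring that both mates map, dropping chimeric fragments and setting no strand, so genes that overlap or lie antisense are uncertain. Exon lengths come from the deposited tables. The submitters' processing notes list STAR 2.7.0c, Trim Galore 0.6.0, FastQC 0.11.7 and bcl2fastq 2.17.

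filterByExpr (10 counts per library, 15 in total) kept 19092 genes, 37 of the 44 collagens among them. The 16 knock-in libraries were fitted together with edgeR 4.0.16 in R 4.3.3 (TMM, glmQLFit, 8 residual degrees of freedom). For the wildtype mESCs the fit held all 18 libraries (19296 genes, 9 residual degrees of freedom). The 16 comparisons used the two-sided quasi-likelihood test, Benjamini-Hochberg adjustment over all genes and a threshold of 0.05. Changes are log2, and SE is the absolute change over the root of F. CPM used TMM factors over 18 libraries with no pseudocount. The test was tried on simulated counts first.

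Separate cultures are not stated for the replicates, so the p-values measure only how far these samples vary, and that variation may be technical. Within each group the replicates differed beyond sampling noise (chi-square over degrees of freedom 2.28 to 11.2). Values per library are given for collagens with a mean of at least 20 CPM in a knock-in group, and changes for others called with an absolute log2 change of at least 2. Each of 3 partner lists gives the 4 genes with the largest called change at day 10, and Serpinh1 is added. Other genes and values named were chosen after the values were seen. The members and lists were chosen with earlier results of these data known. Alternatives were DESeq2 1.42.0, RLE size factors, library totals (for the partner and marker lists and the class sums chosen after the data were seen), no filter, a replicate term, the 4 libraries compared alone, and leaving out each library. Intervals (95%, exact) and the floor of 3 counts per library cover counting error only.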

Additional observations from a re-analysis of the deposited data

Results flagged for a closer look

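Interaction terms were looked at for 9 collagens, those with a mean of at least 20 CPM in a knock-in group and Col1a1. Col1a1 was added with its values known. For all 9 the K19R minus FLAG-WT difference changed between day 0 and at least 1 later day by the interaction term of the edgeR fit (adjusted p over all genes). Of all genes, 12.7% were called higher and 14.4% lower by day 2. By day 6 these shares were 22.1% and 22.4%, and by day 10 they were 26.1% and 18.8%. The share of all genes called in at least 1 term was not computed. Each value here is that change on the log2 scale, with its SE. Every term below subtracts the same day 0 libraries, so the terms of a gene are not independent.

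Col4a1 changed by -2.96 by day 2 (SE 0.13, adjusted p = 2.8e-15), -1.65 by day 6 (SE 0.13, adjusted p = 6.9e-11) and -0.97 by day 10 (SE 0.13, adjusted p = 6.3e-07). Col4a2 changed by -3.12 (SE 0.12, adjusted p = 2.3e-16), -1.62 (SE 0.11, adjusted p = 1.7e-11) and -0.97 (SE 0.11, adjusted p = 1.3e-07). For both chains the value nearest 0 was that of day 10.

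Col1a1 changed by 2.16 by day 2 (SE 0.51, adjusted p = 0.0021), 4.22 by day 6 (SE 0.38, adjusted p = 1.2e-09) and 5.70 by day 10 (SE 0.43, adjusted p = 6.3e-11). Col1a2 changed by 3.25 by day 10 (SE 0.64, adjusted p = 0.00018). Col5a1 changed by 0.60 by day 6 (SE 0.15, adjusted p = 0.0021) and 0.55 by day 10 (SE 0.16, adjusted p = 0.0053). Col9a2 changed by 1.29 (SE 0.17, adjusted p = 1e-06) and 1.42 (SE 0.27, adjusted p = 9.2e-05) by those days. Col27a1 changed by -0.71 by day 6 (SE 0.20, adjusted p = 0.0046) and 0.72 by day 10 (SE 0.19, adjusted p = 0.0036).

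By day 10 Col2a1 changed by -2.29 (SE 0.18, adjusted p = 1.2e-10) and Col18a1 by -1.44 (SE 0.10, adjusted p = 9.5e-12).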

How the results depend on the processing

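With 2 libraries per group, sets of low-count collagens depend on single libraries. Of 1112 recomputed single-gene differences between K19R and FLAG-WT, 1049 stayed on the same side of the threshold, 45 lost the call and 18 gained it. None that was called in either fit changed sign, and sign was not compared where neither fit called the gene. The collagens higher at day 0 went from 8 to 5 by DESeq2 and to 3 to 5 when 1 library was left out. In the 4 day 0 libraries alone 1 collagen was lower, not 0. The collagens lower in the interaction term by day 6 went from 4 to 2 on library totals, and ranged from 2 to 4 when 1 library was left out. Those higher in FLAG-WT from day 6 to day 10 ranged from 5 to 11, against 9. The causes were not tested.

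The log2 ratio of type IV to fibrillar collagen from raw counts was 0.34 in wildtype mESCs, 2.37, 5.70, 7.51 and 7.24 in FLAG-WT at days 0, 2, 6 and 10, and 2.27, 2.53, 5.18 and 5.97 in K19R. With Col4a1 and Col4a2 over types I, II, III, V and XI it was 6.10, 8.38 and 7.88 in FLAG-WT at days 2, 6 and 10, and 2.57, 2.93, 5.59 and 6.61 in K19R at days 0, 2, 6 and 10. Values per length and not per length differ by construction.

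Libraries with the same replicate number did not deviate together over all genes (correlations from -0.0297 to 0.0291). These values do not show whether such libraries share a culture or a preparation. A replicate block left the day 0 count of higher collagens at 8 and ended 1 single-gene call, Col14a1 at day 2 (-1.47, adjusted p = 0.054).

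On library totals the mesenchyme markers at day 10 went from 4 higher and 2 lower to 5 and 0, an alternative chosen after seeing the data. Over all genes 48.8% were then higher and 14.6% lower, instead of 33.2% and 25.2%.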
